A study of Rattus norvegicus with 20 samples.

Results

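The genes of the neuromuscular junction and its acetylcholine receptor were taken as 10 genes chosen by name: the receptor subunits Chrna1, Chrnb1, Chrnd, Chrne and Chrng, the clustering pathway genes Lrp4, Musk, Dok7 and Rapsn, and the cholinesterase anchor Colq. Of these, 9 were analysed among the 32495 named gene rows of the series, and all 9 passed the filter on low counts that left 11716 rows for testing. The fetal subunit gene Chrng was not analysed here. Gastrocnemius, a mixed muscle of the calf with mainly fast fibres, was sequenced from female Fischer 344 rats that all carried a Ward colorectal carcinoma, so no group was free of tumour. TUMOUR STD (n = 5) received no chemotherapy and ate the standard diet, CHEMO STD (n = 6) received repeated cycles of CPT-11 followed by 5-FU on the standard diet, and CHEMO FO (n = 8) received the same drugs on a diet with fish oil (EPA and DHA), begun with the chemotherapy.

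The neuromuscular junction is the synapse at which a motor nerve makes a muscle fibre contract. Acetylcholine released by the nerve opens a cation channel built of alpha, beta, delta and epsilon subunits in adult muscle, and in fetal muscle the gamma subunit stands in place of epsilon. The nerve also secretes agrin, which binds LRP4 and through it switches on the kinase MuSK. MuSK works with the adaptor Dok7, and the scaffold protein rapsyn then gathers receptors beneath the nerve terminal, where ColQ tethers acetylcholinesterase. As textbook background, these genes are read mainly by the few nuclei that lie under the nerve terminal, and in muscle that loses its nerve supply Chrna1, Chrnd and Musk are also transcribed along the rest of the fibre, with the transcription factor myogenin, which binds E-boxes, taking part. Chrne is transcribed under control of the nerve, in part through a short element named the N-box.

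Counts on named genes ran from 3020821 to 10857477 per library over 20 libraries. CHEMO STD libraries 1 and 2 were counted as 1 sample, as was set before the analysis. Their mean chi-square per gene (genes with at least 500 counts) was 2.23, while the 58 remaining within-group pairs gave 13.7 to 255. Levels are given as CPM, counts relative to library sizes that were scaled by TMM. They are not divided by transcript length, so they rank samples within a gene and not one gene against another. The label of skeletal muscle fitted the fast fibre markers, whose summed level was 132528 to 171345 CPM in 18 of the 19 samples and 92980 CPM in CHEMO FO 18, whereas the summed epithelial tumour markers reached at most 14.5 CPM. In these bulk samples, fewer junctions in the piece of muscle extracted and less RNA per junction cannot be told apart.

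CHEMO FO 18 (replicates carry the numbers of the sample titles) stood apart from every other sample before any group was compared. It was the highest of the 19 samples for 18.6% of all genes tested and the lowest for 18.2%, and TUMOUR STD 10 followed with 12.1% and 13.9%. Among the 9 junction genes, CHEMO FO 18 was the highest sample for 3 (Chrna1, Chrnd and Musk) and the lowest for 4 (Chrne, Dok7, Rapsn and Colq). The comparisons that involve CHEMO FO are therefore given with and without it.

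The sequences upstream of 5 of these genes are shown, Chrna1, Chrnd and Musk, which were highest in that sample, and Chrne and Dok7, which were lowest. Rapsn and Colq, also lowest there, had no entry in the sequence table used. They are the 250 bases before the annotated start of each gene, read 5′ to 3′ on the strand of the gene, from RefSeq on the GRCr8 build: Chrna1 at chr3:78877354-78877603 (minus strand), Chrnd at chr9:95310066-95310315 (plus strand), Musk at chr5:77853486-77853735 (plus strand), Chrne at chr10:55834155-55834404 (minus strand) and Dok7 at chr14:79924018-79924267 (minus strand). Capitals mark each E-box, CANNTG, and each N-box core, CCGGAA, the latter searched on both strands.
Chrna1: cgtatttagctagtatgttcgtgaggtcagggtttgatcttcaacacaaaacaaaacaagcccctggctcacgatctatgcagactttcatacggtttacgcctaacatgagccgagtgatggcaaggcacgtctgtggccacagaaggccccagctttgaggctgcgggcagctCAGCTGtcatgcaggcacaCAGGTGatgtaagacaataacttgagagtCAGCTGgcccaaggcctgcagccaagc
Chrnd: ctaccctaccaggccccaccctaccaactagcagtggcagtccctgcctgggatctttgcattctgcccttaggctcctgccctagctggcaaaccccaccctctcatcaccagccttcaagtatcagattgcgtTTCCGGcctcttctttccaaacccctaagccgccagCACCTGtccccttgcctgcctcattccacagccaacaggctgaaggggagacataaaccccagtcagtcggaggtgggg
Musk: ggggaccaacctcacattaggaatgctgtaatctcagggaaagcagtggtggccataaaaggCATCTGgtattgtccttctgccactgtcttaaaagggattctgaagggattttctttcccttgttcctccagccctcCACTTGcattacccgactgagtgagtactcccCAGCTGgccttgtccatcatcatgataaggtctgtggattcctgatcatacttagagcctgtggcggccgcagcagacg
Chrne: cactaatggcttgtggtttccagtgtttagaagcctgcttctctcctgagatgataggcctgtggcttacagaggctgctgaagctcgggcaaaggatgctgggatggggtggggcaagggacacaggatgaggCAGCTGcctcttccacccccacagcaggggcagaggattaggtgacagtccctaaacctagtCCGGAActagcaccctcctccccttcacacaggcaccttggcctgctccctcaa
Dok7: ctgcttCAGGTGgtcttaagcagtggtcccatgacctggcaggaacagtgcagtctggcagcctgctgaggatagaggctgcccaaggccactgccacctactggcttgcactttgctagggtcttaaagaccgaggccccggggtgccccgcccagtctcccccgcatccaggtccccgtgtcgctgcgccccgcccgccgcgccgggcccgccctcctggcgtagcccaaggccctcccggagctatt
Chrna1 and Musk held 3 E-boxes each, and Chrnd, Chrne and Dok7 held 1 each. Of the 6 analysed genes with a sequence in the table (Chrna1, Chrnb1, Chrnd, Chrne, Musk and Dok7), 6 held at least 1 E-box, as did 65.5% of all 33469 rat promoter windows of this length. The form CAGCTG, which is a subset of CANNTG, was present in 4 of the 6 and in 12.0% of all windows. The N-box core was present in 2 of the 6, Chrnd and Chrne, and in 12.6% of all windows. These matches describe letters and were not tested as binding sites.

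A gene was taken as called at the thresholds of the methods of the study, an unadjusted p below 0.05 with a change of at least 1.5-fold. None of the 9 genes was called in any comparison, nor did any reach an adjusted p below 0.05. Among all genes tested, 0.93% were called higher and 1.45% lower in CHEMO STD relative to TUMOUR STD, 0.615% higher and 1.05% lower in CHEMO FO relative to CHEMO STD, and 1.09% higher and 2.51% lower in CHEMO FO relative to TUMOUR STD. No gene of the series passed an adjusted p of 0.05 in edgeR, and 762, 528 and 1059 genes had an unadjusted p below 0.05, which is 6.5%, 4.51% and 9.04% of those tested. With no fold threshold, 1 member, Lrp4, passed in CHEMO STD relative to TUMOUR STD, none passed in CHEMO FO relative to CHEMO STD, and Lrp4 passed in CHEMO FO relative to TUMOUR STD. The median log2 fold change of the 9 genes was -0.09, 0.05 and -0.07 in the 3 comparisons, beside medians of -0.0016, -0.006 and 0.0023 over all genes tested.

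**Figure D1:**
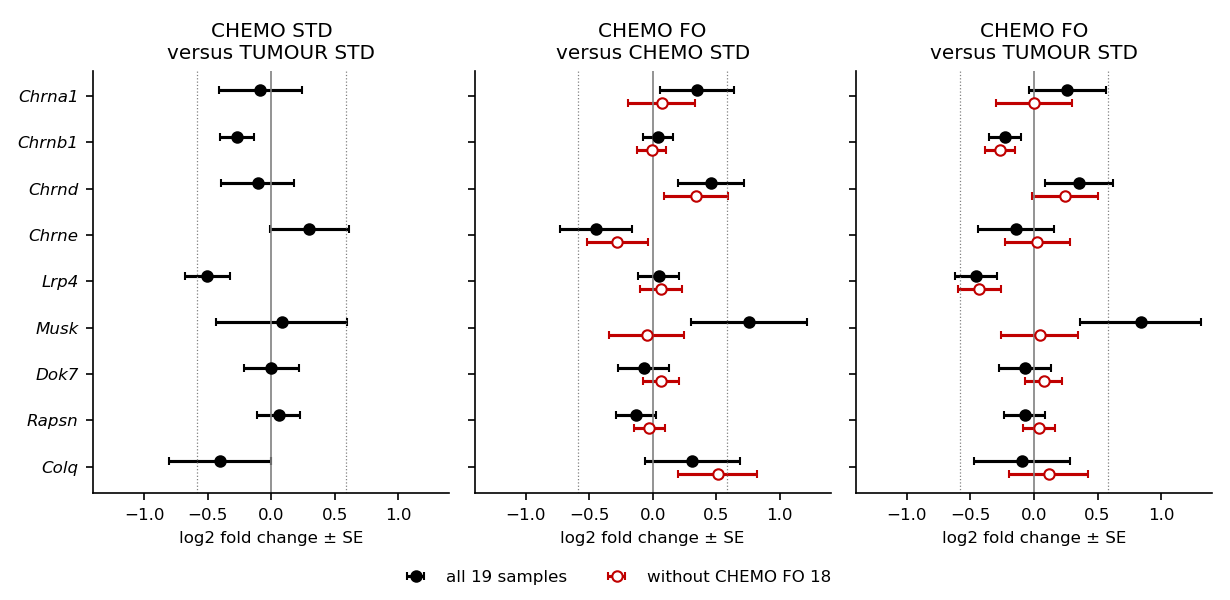
Log2 fold change ± SE (horizontal axis) of the 9 genes in the 3 comparisons, from all 19 samples (filled) and without CHEMO FO 18 (open). Dotted lines mark 1.5-fold. The values of Musk at 0.76 and 0.84 move to -0.05 and 0.04 without that sample, whereas Lrp4 stays at -0.46 and -0.43 relative to TUMOUR STD.

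Musk, the receptor kinase that starts receptor clustering, varied more between samples than any other of the 9 genes, with a highest level 14.7 times the lowest. Its level in TUMOUR STD was 8.69, 4.58, 3.40, 3.40 and 3.73 CPM in replicates 8 to 12. In CHEMO STD it ran from 2.86 to 9.18 CPM with a median of 4.66. In CHEMO FO it ran from 2.05 to 30.2 CPM with a median of 5.08, and the top value, from 332 counts, was CHEMO FO 18. The other 18 samples of the study lay between 2.05 and 9.18 CPM, so the groups overlapped and 1 sample lay far above the rest. In CHEMO FO relative to CHEMO STD the log2 fold change of Musk was 0.76 ± 0.46 (SE; edgeR quasi-likelihood test, adjusted p = 0.974), and relative to TUMOUR STD it was 0.84 ± 0.48 (adjusted p = 0.588). Without CHEMO FO 18 these values became -0.05 ± 0.29 (adjusted p = 0.988) and 0.04 ± 0.30 (adjusted p = 0.982). Leaving out other samples had the opposite effect on the comparison with TUMOUR STD: without TUMOUR STD 8 the value was 1.17 ± 0.52 and without CHEMO FO 13 it was 0.98 ± 0.46, and Musk was called in both of these fits. In CHEMO STD relative to TUMOUR STD the value was 0.08 ± 0.52 (adjusted p = 0.975).

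Chrna1 encodes the alpha subunit, which carries the acetylcholine binding site. TUMOUR STD replicates 8 to 12 had 5.04, 2.59, 4.76, 3.24 and 4.08 CPM. In CHEMO STD the lowest, median and highest levels were 1.27, 4.06 and 4.94 CPM, and in CHEMO FO they were 2.79, 3.89 and 9.45 CPM. CHEMO FO 18 was again the highest, the other 18 samples ended at 5.21 CPM, and the groups overlapped. This gene was shallowly covered, down to 4 counts in CHEMO STD 5, so single samples are imprecise. Its log2 fold change was 0.35 ± 0.29 in CHEMO FO relative to CHEMO STD (adjusted p = 0.974) and 0.26 ± 0.30 relative to TUMOUR STD (adjusted p = 0.805), and without CHEMO FO 18 it was 0.07 ± 0.26 and 0.00 ± 0.30. The chemotherapy comparison on the standard diet gave -0.09 ± 0.33 (adjusted p = 0.959).

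Chrnd, the delta subunit, was 13.9, 11.6, 12.1, 5.99 and 7.45 CPM in TUMOUR STD replicates 8 to 12. It ran from 6.10 to 13.3 CPM in CHEMO STD, with a median of 9.20, and from 6.32 to 19.5 CPM in CHEMO FO, with a median of 12.3. CHEMO FO samples 16, 18 and 19, at 18.2, 19.5 and 18.5 CPM, lay above every sample of both other groups, while CHEMO FO 15 at 6.32 CPM lay near the bottom of both. The log2 fold change in CHEMO FO relative to CHEMO STD was 0.46 ± 0.26 (adjusted p = 0.974) and 0.34 ± 0.25 without CHEMO FO 18 (adjusted p = 0.889). It was 0.61 ± 0.27 without the CHEMO STD sample of libraries 1 and 2, the one fit run in which Chrnd was called. Relative to TUMOUR STD the value was 0.35 ± 0.27 (adjusted p = 0.689), and 0.24 ± 0.26 without CHEMO FO 18.

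Chrne, the epsilon subunit of the adult receptor, lay at the other end in CHEMO FO 18. Its levels in TUMOUR STD were 5.91, 10.2, 5.83, 10.2 and 12.8 CPM in replicates 8 to 12. In CHEMO STD they ran from 8.18 to 14.1 CPM with a median of 11.1, and in CHEMO FO from 2.73 to 13.2 CPM with a median of 9.11. CHEMO FO 18 was the lowest sample of the study, CHEMO FO 13 the next at 3.81 CPM, and 3 of 8 CHEMO FO samples lay under the lowest of CHEMO STD. The log2 fold change in CHEMO FO relative to CHEMO STD was -0.44 ± 0.28 (adjusted p = 0.974), and -0.28 ± 0.24 without CHEMO FO 18 (adjusted p = 0.899). In CHEMO STD relative to TUMOUR STD it was 0.30 ± 0.31 (adjusted p = 0.807), and in CHEMO FO relative to TUMOUR STD it was -0.14 ± 0.30 (adjusted p = 0.907), or 0.03 ± 0.25 without CHEMO FO 18.

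The balance of the adult subunit to the shared alpha subunit does not depend on library scaling, since both counts come from the same sample. The log2 ratio of Chrne to Chrna1 counts was 0.23, 1.97, 0.29, 1.63 and 1.63 in TUMOUR STD replicates 8 to 12. In CHEMO STD it ran from 0.89 to 2.81 with a median of 1.45, and in CHEMO FO from -1.78 to 1.67 with a median of 1.21. The ratio is imprecise where counts are low. The value of 2.81, in CHEMO STD 5, came from 31 Chrne and 4 Chrna1 counts, and 2.39 in CHEMO STD 6 from 65 and 12. Only 2 of the 19 samples, CHEMO FO 13 at -0.29 and CHEMO FO 18 at -1.78, had fewer Chrne than Chrna1 counts. In CHEMO FO 13 these were 13 and 16 counts. Counts are not divided by transcript length, so the sign of the ratio does not rank the 2 genes, and only samples can be compared by it. The mean ratio in CHEMO FO minus that in CHEMO STD was -0.95 (two-sided exact permutation test, p = 0.117, adjusted p = 0.351 over the 3 comparisons), and -0.59 without CHEMO FO 18 (exact permutation p = 0.182). The difference of means was 0.55 in CHEMO STD relative to TUMOUR STD (exact permutation p = 0.273, adjusted p = 0.41) and -0.40 in CHEMO FO relative to TUMOUR STD (exact permutation p = 0.58, adjusted p = 0.58). These group differences were within the spread between samples.

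**Figure D2:**
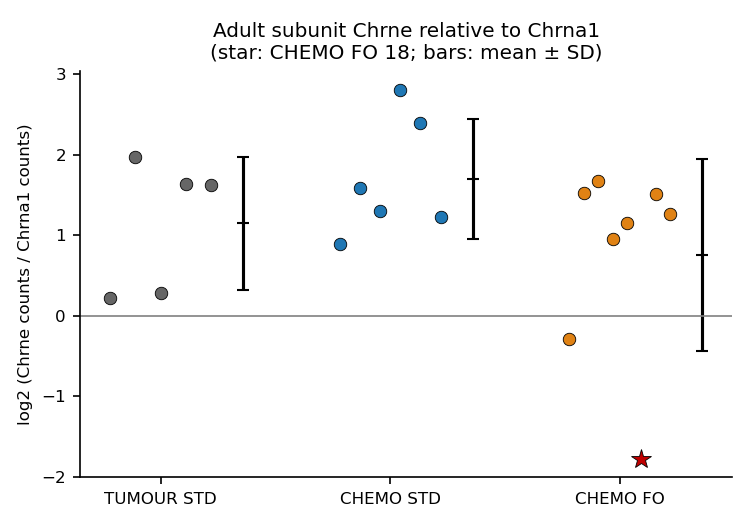
The log2 ratio of Chrne counts to Chrna1 counts (vertical axis, 0.5 added to each count) is plotted for each sample of the 3 groups, with the mean and SD beside them. The star, CHEMO FO 18, lies at -1.78, and the other 18 samples lie between -0.29 and 2.81.

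Lrp4, the agrin receptor, had the smallest p value of the 9 genes in both comparisons with TUMOUR STD. TUMOUR STD replicates 8 to 12 had 35.1, 38.3, 50.8, 31.4 and 30.5 CPM. CHEMO STD ran from 21.9 to 31.5 CPM with a median of 25.4, and CHEMO FO from 20.7 to 40.5 CPM with a median of 25.0. Of the samples given chemotherapy, 4 of 6 in CHEMO STD and 6 of 8 in CHEMO FO lay below the lowest TUMOUR STD sample, and the rest overlapped with it. The log2 fold change was -0.50 ± 0.18 in CHEMO STD relative to TUMOUR STD (1.42-fold lower, adjusted p = 0.719, edgeR) and -0.46 ± 0.17 in CHEMO FO relative to TUMOUR STD (1.37-fold lower, adjusted p = 0.486). Both comparisons share the TUMOUR STD samples, and both fell short of the 1.5-fold threshold of a call. The 2 highest samples, TUMOUR STD 10 at 50.8 CPM and CHEMO FO 16 at 40.5 CPM, were also the 2 samples with high keratinocyte markers, whose summed level was 501 and 109 CPM there and at most 8.07 CPM in CHEMO STD. Without TUMOUR STD 10 the log2 fold changes were -0.36 ± 0.17 (adjusted p = 0.999) and -0.32 ± 0.17 (adjusted p = 0.854), and the part of these other cells in the level of Lrp4 was not tested. CHEMO FO and CHEMO STD differed by 0.05 ± 0.16 (adjusted p = 0.994), with a 95% interval from -0.30 to 0.39.

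Chrnb1, the beta subunit, was the member with the narrowest spread, with a highest level 1.67 times the lowest over the 19 samples. TUMOUR STD replicates 8 to 12 had 49.0, 47.9, 42.5, 45.6 and 41.2 CPM. CHEMO STD ran from 29.3 to 41.0 CPM with a median of 39.9, and CHEMO FO from 29.9 to 48.3 CPM with a median of 37.7. All 6 CHEMO STD samples lay below all 5 TUMOUR STD samples, though the nearest values, 41.0 and 41.2 CPM, nearly met. Among all genes tested, the ranges of these groups did not overlap for 0.495%, and Chrnb1 was the one member of 9 for which they did not. In CHEMO FO relative to CHEMO STD no member had ranges that did not overlap, against 0.0683% of all genes, and likewise none in CHEMO FO relative to TUMOUR STD, against 0.324%. The log2 fold change of Chrnb1 was -0.27 ± 0.13 in CHEMO STD relative to TUMOUR STD (1.20-fold lower, adjusted p = 0.719) and -0.23 ± 0.12 in CHEMO FO relative to TUMOUR STD (adjusted p = 0.574), or -0.27 ± 0.12 without CHEMO FO 18 (adjusted p = 0.527). The diet comparison gave 0.04 ± 0.12 (adjusted p = 0.992), with a 95% interval from -0.21 to 0.30.

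Dok7, the activator of MuSK, and Rapsn, the receptor scaffold, had similar medians in the 3 groups. Dok7 was 18.1, 17.2, 20.6, 24.3 and 22.9 CPM in TUMOUR STD replicates 8 to 12, ran from 17.7 to 26.0 CPM in CHEMO STD with a median of 19.3, and from 7.54 to 29.0 CPM in CHEMO FO with a median of 20.7. Rapsn was 18.6, 23.3, 29.3, 24.8 and 22.2 CPM in TUMOUR STD, ran from 20.8 to 27.7 CPM in CHEMO STD with a median of 25.3, and from 12.3 to 27.2 CPM in CHEMO FO with a median of 24.1. Both lowest values were those of CHEMO FO 18, and the other 18 samples started at 18.6 CPM for Rapsn. Over the 3 comparisons the log2 fold changes of Dok7 were 0.00, -0.07 and -0.07 and those of Rapsn 0.06, -0.13 and -0.07, in the order CHEMO STD relative to TUMOUR STD, CHEMO FO relative to CHEMO STD and CHEMO FO relative to TUMOUR STD, each with an SE of 0.15 to 0.22. Without CHEMO FO 18 the values relative to CHEMO STD and to TUMOUR STD were 0.06 and 0.08 for Dok7 and -0.03 and 0.04 for Rapsn, so that 3 of these 4 signs turned. With all samples, the unadjusted p values of both genes ran from 0.408 to 0.996 (edgeR quasi-likelihood test).

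Colq, the collagen tail that anchors acetylcholinesterase in the cleft, was the least counted member together with Chrna1, with 5 to 50 counts per sample. It was 2.78, 4.67, 1.65, 3.88 and 3.73 CPM in TUMOUR STD replicates 8 to 12, 1.18 to 3.26 CPM in CHEMO STD (median 2.61) and 0.64 to 5.63 CPM in CHEMO FO (median 3.00). CHEMO FO 18 was the lowest sample, from 7 counts, and CHEMO FO 17 and 19, at 5.63 and 5.28 CPM, were the highest. The log2 fold changes were -0.41 ± 0.40 (adjusted p = 0.793), 0.31 ± 0.37 (adjusted p = 0.975) and -0.09 ± 0.37 (adjusted p = 0.957) in the same order of comparisons. Without CHEMO FO 18 the latter values became 0.51 ± 0.31 (adjusted p = 0.889) and 0.11 ± 0.31 (adjusted p = 0.939), so the sign relative to TUMOUR STD turned. The 95% interval of the chemotherapy comparison ran from -1.26 to 0.44 and did not exclude a fall of 1.5-fold.

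**Figure D3:**
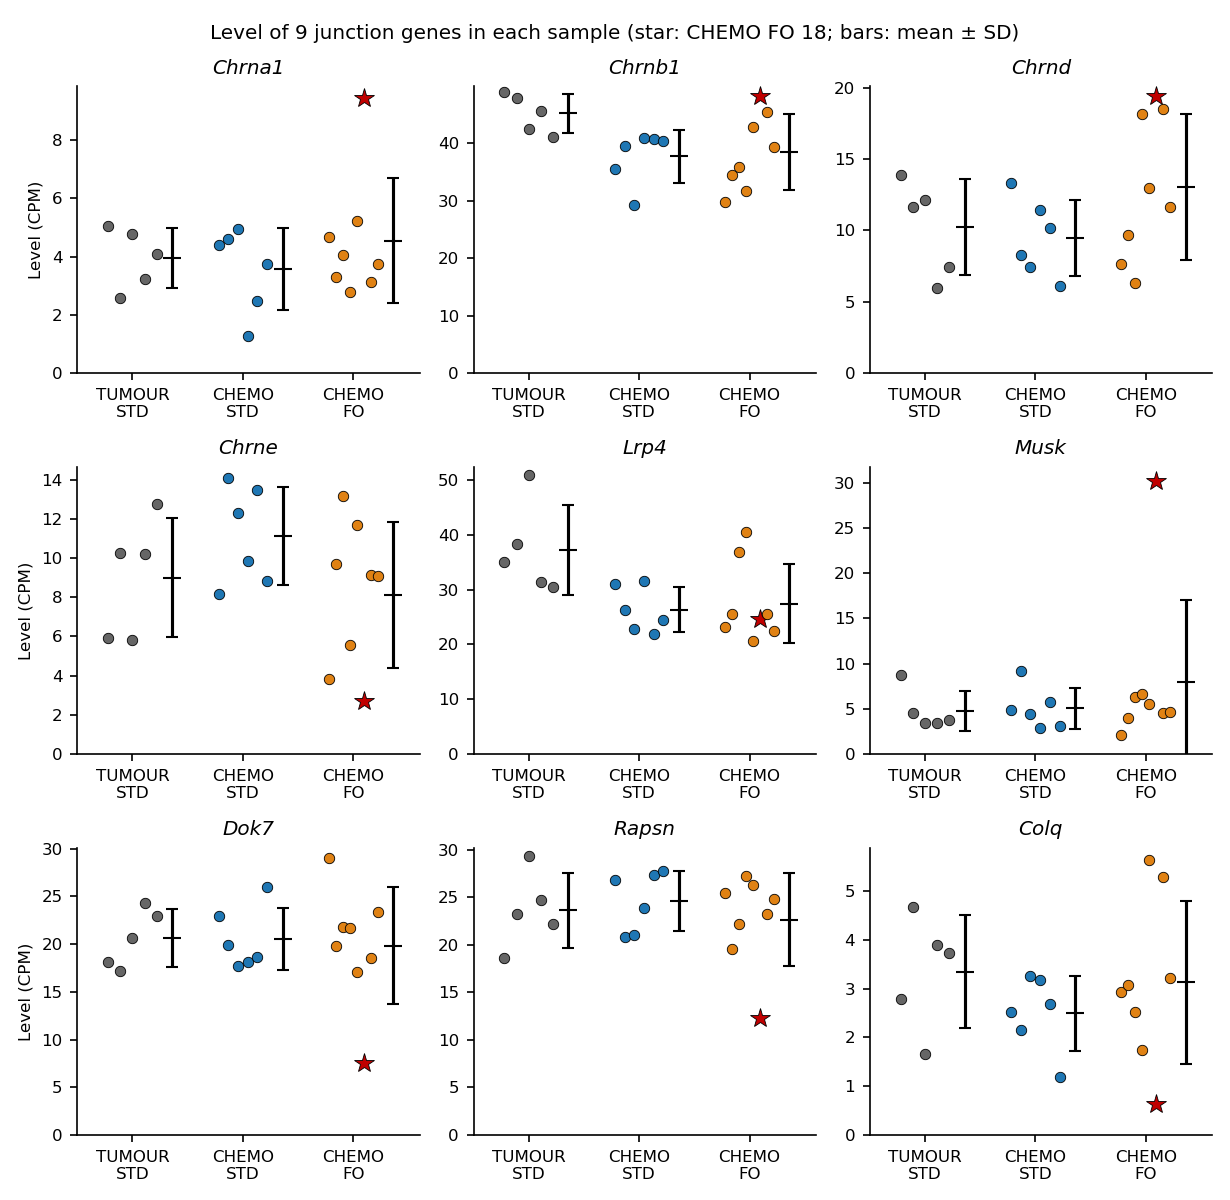
Level in CPM (vertical axes from 0, a scale of its own for each gene) of the 9 genes in each of the 19 samples, by group, with the mean ± SD to the right of each group (the SD of Musk in CHEMO FO is cut at 0). The star is CHEMO FO 18, which is the highest sample for Chrna1, Chrnd and Musk and the lowest for Chrne, Dok7, Rapsn and Colq.

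In CHEMO FO 18, 8 of the 9 genes lay outside the range of the other 7 CHEMO FO samples, 4 above it (Chrna1, Chrnb1, Chrnd and Musk) and 4 below it (Chrne, Dok7, Rapsn and Colq), and Lrp4 was within it. Over all genes tested, this sample was above the other 7 for 26.7% and below them for 25.6%. Each of the other 7 CHEMO FO samples was outside the rest for 0 to 3 of the 9 genes, and over all genes these samples were above the rest for 7.42% to 16.2% and below for 6.6% to 18.2%, the highest shares being those of CHEMO FO 16. Relative to the median of the other 7, Musk was 6.45-fold higher, at percentile 99.7 among all genes tested, and Chrna1 was 2.52-fold higher, at percentile 96.1. The percentiles rank this ratio after a small constant was added to both levels, so their order can differ from that of the fold changes. Chrnd and Chrnb1 were 1.67-fold and 1.34-fold higher. Colq was 4.84-fold lower, Chrne 3.35-fold lower, Dok7 2.87-fold lower and Rapsn 2.03-fold lower, at percentiles 2.88, 3.32, 4.28 and 9.96. These values describe a single sample chosen after its levels were seen, with no test.

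Other listed genes also lay outside the range of the group in CHEMO FO 18. The counts below stand beside 26.7% of all genes tested above the other 7 samples and 25.6% below them. From the list of genes known to respond to muscle activity and denervation, 3 of 7 tested lay above the other CHEMO FO samples: Gadd45a at 77.4 CPM (others 5.94 to 11.4), Myog, which encodes myogenin, at 45.2 CPM (11.9 to 19.5), and the transcription factor gene Runx1 at 18.9 CPM (2.78 to 6.28). Another 2 of the 7, the repressor gene Hdac9 at 6.63 CPM (16.9 to 34.2) and Myod1 at 10.0 CPM (24.9 to 28.5), lay below, while Ncam1 and Hdac4 were within the range. Ache, which encodes the acetylcholinesterase that ColQ anchors, was at 2.73 CPM against 34.2 to 55.9 CPM, 17.3-fold lower than the median of the others. Below the range were 8 of 13 genes of the agrin and scaffold list, among them the muscle sodium channel gene Scn4a at 169 CPM (322 to 553), and 6 of 10 of the cleft and basal lamina list. In the neuregulin and ETS factor list, 3 of 7 were above the range: Gabpa, Gabpb1 and the neuregulin receptor gene Erbb3, at 25.7 CPM (4.68 to 11.5). Another 2 of the 7, Etv4 and Etv5, lay below it, and Erbb2 and Erbb4 were within it. Markers of other cells moved in this sample as well. Of 7 macrophage markers, 5 were above the other 7 samples. Adgre1 was below them at 7.54 CPM (9.225 to 19.2), and Csf1r was within their range. The summed level of this list was 648 CPM, with Cd163 at 273 CPM and Mrc1 at 167 CPM, against a group median of 238 CPM. All 7 tested fast fibre markers were below the other 7 samples, with a sum of 92980 CPM against a group median of 154518 CPM. These group medians of summed levels are over all 8 CHEMO FO samples, CHEMO FO 18 among them. The Schwann cell and myelin markers summed to 103 CPM against a group median of 141 CPM, but CHEMO FO 15 was lower, at 88.2 CPM. Of the 6 tested, 2 were below the other 7 samples and 0 above. Fibroblast markers lay below for 3 of 5 and above for 2 of 5. Below the range were also 3 of 3 smooth muscle, 2 of 3 endothelial, 4 of 8 slow fibre and 3 of 8 tendon markers. Of 3 satellite cell markers, 1 was above and 0 below. The part of these marker lists in the levels of the junction genes was not tested.

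**Figure D4:**
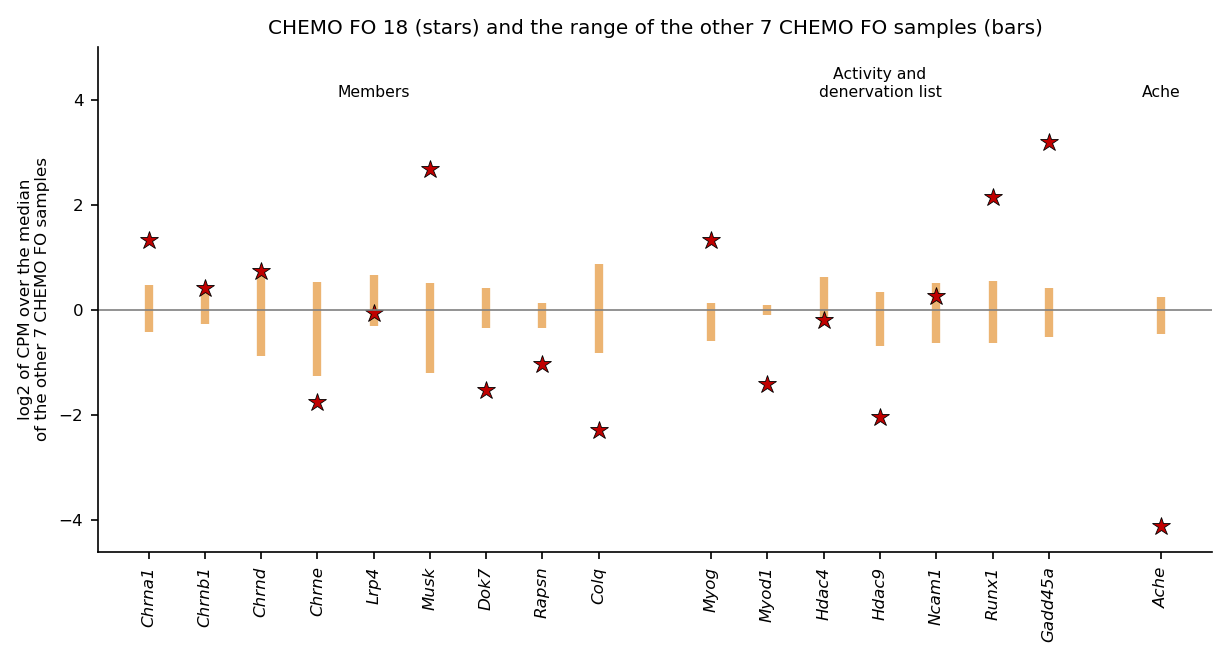
For each gene, the star gives CHEMO FO 18 and the bar the range of the other 7 CHEMO FO samples, as log2 of the CPM over the median of those 7. Drawn are the members, the tested genes of the activity and denervation list, and Ache. Ache is the only gene drawn from the cleft and basal lamina list, in which 6 of 10 were below the other 7. Among the genes drawn, Musk, Runx1 and Gadd45a lie farthest above the bars, and Ache, 17.3-fold lower than the median, farthest below.

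How the junction genes varied together was measured by the correlation of log2 CPM after the group means were subtracted, over 19 samples. These samples differed in depth and in the summed levels of the cell type markers, and the part of these differences in the correlations was not tested. Of 36 pairs, none passed an adjusted permutation p of 0.05 for Pearson r or for Spearman rho. Musk and Dok7 gave the most negative value, r = -0.81 (permutation p = 0.00365, adjusted p = 0.0864) and rho = -0.48 (permutation p = 0.0452, adjusted p = 0.398), and with CHEMO FO 13 and 18, the samples farthest from the median of Musk, left out, r was -0.28. Dok7 and Rapsn gave the most positive value, r = 0.77 (permutation p = 0.0102, adjusted p = 0.0918) and rho = 0.57 (permutation p = 0.0145, adjusted p = 0.374), and r was 0.35 without CHEMO FO 13 and 18. Chrne and Colq gave r = 0.69 (permutation p = 0.0048, adjusted p = 0.0864) and rho = 0.53 (permutation p = 0.0312, adjusted p = 0.374), and r was 0.56 without the same samples. An absolute r above 0.5 was found in 9 pairs with CHEMO FO 18 and in 3 pairs without it. The median r over all pairs was -0.11, and -0.05 without CHEMO FO 18.

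**Figure D5:**
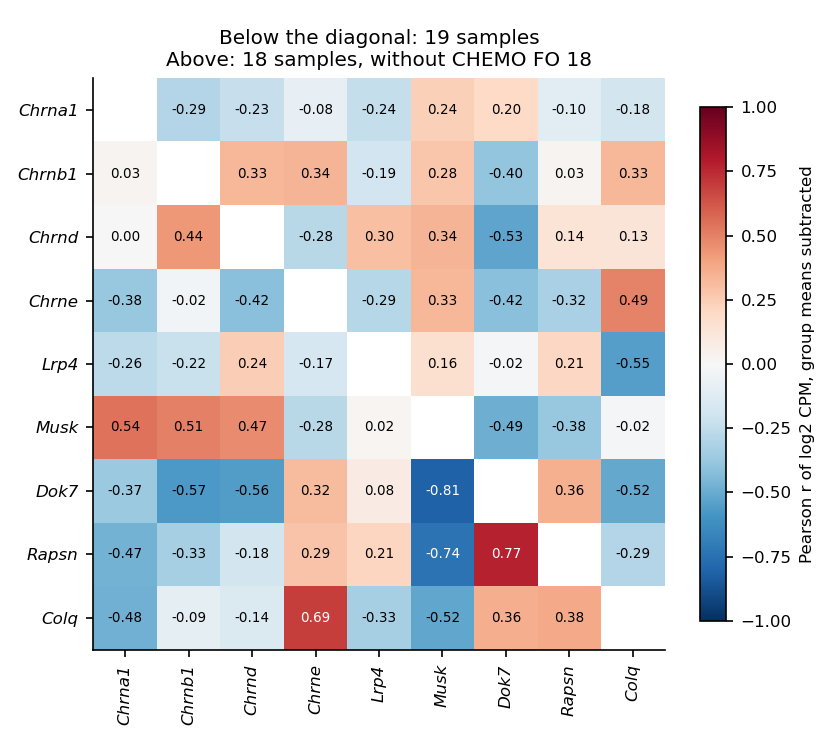
Pearson r of log2 CPM, group means subtracted, for each pair of the 9 genes. Values below the diagonal use 19 samples and values above it 18, without CHEMO FO 18. The block of Musk with Dok7 and Rapsn goes from -0.81 and -0.74 to -0.49 and -0.38.

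Outside the members, the genes whose pattern was most like that of Chrna1 over the 19 samples were Gpihbp1 (r = 0.89), Myc (0.82), Vmp1 (0.79), Samd1 (0.78) and Wrap73 (0.77). Gpihbp1, which holds lipoprotein lipase at the capillary wall, also came first without CHEMO FO 18 (r = 0.88, 18 samples), whereas the other 4 were no longer among the first 5. With the mean of the standardised members, the most alike were Ephx2 (0.78), Lrig3 (0.75), Tirap (0.72), Mecr (0.72) and Pomgnt2 (0.70), of which Mecr was again among the first 5 without that sample (0.70). These are descriptions over samples that differed in depth and in marker levels, chosen as the largest of all genes tested.

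Of the other genes of the junction, 2 of the 10 tested in the synaptic cleft and basal lamina list were called lower in CHEMO STD relative to TUMOUR STD. Lama5, a laminin chain of the synaptic basal lamina, had a log2 fold change of -0.62 ± 0.16 (adjusted p = 0.719), from 29.2 ± 6.99 CPM (SD, n = 5) in TUMOUR STD to 18.9 ± 3.49 CPM (SD, n = 6) in CHEMO STD. Col13a1, a transmembrane collagen that helps the nerve terminal to adhere, was at -0.85 ± 0.36 (adjusted p = 0.719), and it was the one gene of the list called in CHEMO FO relative to TUMOUR STD, at -0.94 ± 0.35 (adjusted p = 0.486). Lama5 was at -0.54 ± 0.15 there (adjusted p = 0.486), short of 1.5-fold. Of the 10 genes, 9 had a negative value in each of these comparisons, which share the TUMOUR STD samples, with medians of -0.35 and -0.39, while 49.7% and 50.4% of all genes tested had a positive value. Without TUMOUR STD 10 the medians were -0.25 and -0.24, with 9 of 10 negative in each. In CHEMO FO relative to CHEMO STD, 5 of 10 were negative and none was called. Without TUMOUR STD 10, Lama5 was at -0.48 and Col13a1 at -0.62 in CHEMO STD relative to TUMOUR STD, and neither was called, nor was Col13a1 in CHEMO FO relative to TUMOUR STD, at -0.71. In that sample the keratinocyte, Schwann cell and tendon markers had their highest summed levels of the study, at 501, 499 and 1860 CPM. The part of other cell types in these genes was not tested.

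The agrin and scaffold list (13 tested), the neuregulin and ETS factor list (7), the glycosylation genes of congenital myasthenic syndrome (5) and the nerve terminal list (3) held no called gene in any comparison. In the activity and denervation list, 1 of 7 was called, Gadd45a in CHEMO FO relative to TUMOUR STD at 1.29 ± 0.53 (adjusted p = 0.516), and it was at 0.22 ± 0.22 without CHEMO FO 18 (adjusted p = 0.798). None of the 11 neuronal-type nicotinic subunit genes was tested, and their counts together came to at most 1.18 CPM in a sample. Chat, Slc18a3, Slc5a7 and Syt2, which serve acetylcholine synthesis and release in the motor neuron, had 0 counts in every sample, which at 3 counts allows a level of up to 1.05 CPM in the sample with the smallest scaled library (counting error only).

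The marker lists showed what else differed between the groups. In CHEMO STD relative to TUMOUR STD, 3 of 3 tested smooth muscle markers, 4 of 8 tendon markers and 2 of 8 slow fibre markers were called lower, and 0 of 6 Schwann cell and myelin markers were called. In CHEMO FO relative to CHEMO STD, 4 of 6 Schwann cell and myelin markers were called lower, among them Mbp and Prx, or 3 of 6 without CHEMO FO 18, and the summed level of that list reached 478 CPM in CHEMO STD libraries 1 and 2 and at most 166 CPM in CHEMO FO. In CHEMO FO relative to TUMOUR STD, 3 of 3 smooth muscle, 3 of 8 tendon, 2 of 6 Schwann cell and myelin, 1 of 8 slow fibre and 1 of 5 fibroblast markers were called lower, and 1 of 7 macrophage markers, Cd163, was called higher. Without CHEMO FO 18 these counts were 2 smooth muscle, 3 tendon, 1 fibroblast and 0 Schwann cell, slow fibre and macrophage markers. The 1 keratinocyte marker tested, Dsp, was called lower in both comparisons with TUMOUR STD, and these calls rested on TUMOUR STD 10, at 176 CPM, as the other 4 samples of that group had 2.43 to 5.21 CPM. Without TUMOUR STD 10, Dsp was at -0.22 in CHEMO STD and 0.64 in CHEMO FO and was not called. In that fit 0 tendon markers were called in CHEMO STD and 1 in CHEMO FO, fibroblast and Schwann cell markers held no lower call, and all 3 smooth muscle markers were called lower in both. Of the 8 slow fibre markers, 2 were still called lower in CHEMO STD (Atp2a2 and Myh7) and 0 in CHEMO FO. The same fit called 2 Schwann cell and myelin markers higher in CHEMO STD and 2 macrophage markers higher in CHEMO FO. Fast fibre (7 tested), satellite cell (3) and endothelial (3) markers held no call. The part of these lists in the levels of the junction genes was not tested.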

How the data were processed

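RNA of gastrocnemius muscle was sequenced by the authors as stranded, rRNA-depleted libraries. Per the submitters' processing notes and the study's methods, they used CASAVA 1.9, Trim Galore 0.4.1, FastQC 0.11.4, TopHat2 2.0.10 and Bowtie2 (Rnor 6, Ensembl annotation) and Partek Flow, and deposited raw counts per gene. Counting settings, including strand and reads shared by overlapping genes, were not found in the labels or methods read. Rows without a gene name (0.102% to 0.272% of counts) were left out. CHEMO STD libraries 1 and 2 were summed.

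Counts were analysed with edgeR 4.0.16 in R 4.3.3 (TMM, default filter with minimum count 10, quasi-likelihood test, 3 groups in 1 fit, Benjamini-Hochberg adjustment over 11716 genes). SEs are the fold change over the square root of F, and 95% intervals use 16 residual degrees of freedom. Ratios had 0.5 added to each count, and correlations used log2 CPM (prior count 2) with 100000 permutations. Alternatives were DESeq2 1.42.0, limma 3.58.1 (voom with quality weights), other scalings and filters, and leaving out samples. The pipeline was tested on simulated data. The study counts its sequenced samples as animals, and CHEMO STD, with 7 libraries, enters here as 6 samples.

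The members and lists were chosen with earlier results of these data known. Named were the members, the genes called in the other pathway lists, and the 5 genes most correlated with Chrna1 and with the mean of the members. The counts of listed genes without TUMOUR STD 10, the comparison of CHEMO FO 18 with the other samples and the genes named in it were chosen after seeing the data. A few listed genes are not reported here. A planned ratio of Chrng to Chrne was not analysed here. Promoter sequences came from RefSeq (GRCr8), where 6 of the 9 analysed genes had an entry. Figures were drawn with matplotlib 3.10.9.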

Additional observations from a re-analysis of the deposited data

Results flagged for a closer look

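In a screen of the 9 genes in the 3 groups (27 combinations) for a sample far from its group by Dixon's test, 3 values stood out. Chance gives about 1 in 20 groups, and over all genes tested 8.6% of the combinations of a gene and a group stood out in the same way. CHEMO FO 18 alone stood out for 10.6% of all genes, beside its 2 of the 9 genes here. Musk in CHEMO FO 18 was 30.2 CPM, with a gap to the next sample of 0.837 of the range of the group. Chrna1 in the same sample was 9.45 CPM, with a gap of 0.638 of the range. Musk in TUMOUR STD 8 was 8.69 CPM, with a gap of 0.777 of the range, and this sample was the highest of the study for Chrnb1 (49.0 CPM). Dok7, Rapsn, Chrne and Colq, whose lowest values of the study were those of CHEMO FO 18, did not pass this test.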

How the results depend on the processing

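No member was called in the 3 comparisons under DESeq2, limma voom with quality weights, RLE factors, library totals, either change of the filter, a fit of only the groups compared, or with libraries 1 and 2 separate or one of them dropped. The number called was 1 in place of 0 with no fold threshold in CHEMO STD relative to TUMOUR STD and in CHEMO FO relative to TUMOUR STD (Lrp4 in both). Leaving out 1 sample at a time gave 0 to 1 called members in CHEMO FO relative to CHEMO STD (Chrnd, without CHEMO STD libraries 1 and 2) and 0 to 1 in CHEMO FO relative to TUMOUR STD (Musk, without TUMOUR STD 8 or CHEMO FO 13). Of 783 recomputed fold changes, 36 had the opposite sign to the reported value, none of them called on either side. The leave-one-out range was -0.05 to 0.97 for Musk in CHEMO FO relative to CHEMO STD and -0.56 to -0.36 for Lrp4 in CHEMO STD relative to TUMOUR STD. The cause of these differences was not tested. No difference in the Chrne to Chrna1 ratio passed the exact permutation test in any alternative run (a pseudocount of 2, libraries 1 and 2 separate, each sample left out), and in CHEMO FO relative to TUMOUR STD it was -0.03 without CHEMO FO 18. Low counts of Chrna1, Colq and Musk limit single samples. No paired analysis was possible because the groups share no replicate numbers.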
